A study of Caenorhabditis elegans with 12 samples.

Results

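Sensory cilia are the antenna-like endings of *C. elegans* sensory neurons, and the genes that build and run them were followed here through mitochondrial stress in animals with and without the microRNA gene *mir-71*. The set holds 48 genes, taken by symbol from the deposited table with a count above 0 in at least 3 of 12 libraries. All 48 listed genes met that condition, out of 20212 genes in the table. They comprise 13 genes of intraflagellar transport complex B (IFT-B), 3 of complex A (IFT-A), 6 of the transport motors, 6 of the BBSome, 8 of the transition zone, 6 regulators or components of the ciliary base and 6 genes of sensory transduction. RNA was sequenced from the whole body of animals collected at the L4 larval stage. Wild type was the strain N2. The mutant was MT12993, a strain that carries the deletion allele *mir-71(n4115)*. Each genotype was raised with water or with sodium azide, an inhibitor of respiratory complex IV, and each of the 4 groups had 3 biological replicates. No azide dose is stated for these libraries. The deletion removes *mir-71* from every tissue, so a change in the mutant is not tied to any cell type, and a single mutant strain was used.

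In *C. elegans* the cilium is found on sensory neurons, where it carries the receptors and channels that detect odours, osmotic strength and pheromones. Intraflagellar transport moves cargo along the ciliary microtubules: kinesin-2 motors carry IFT trains outward to the tip, cytoplasmic dynein-2 brings them back, IFT-A and IFT-B form the trains, and the BBSome holds them together and serves as a cargo adaptor. The transition zone is the gate at the ciliary base. The RFX-type transcription factor DAF-19 drives many of these genes through a promoter element called the X-box. Worms that lack these genes are commonly defective in chemotaxis, in osmotic avoidance (osm), in dye filling (dyf) or in dauer formation (daf), which is how many of the genes were named.

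Most of these transcripts were scarce in the whole animal. The median count per library was 27.6 over the 47 members that passed the filter on low counts, against 266 over all 15048 genes tested. Of the 47 members, 40 (85.1%) had a mean count under 100, against 32.3% of all genes. The gene left out by the filter was *ift-20*, an IFT-B subunit, with a mean of 5 counts per library. Library totals lay between 16828108 and 23937993 counts. Because the tissue was bulk, fewer cells of a type and less RNA per cell cannot be told apart in any result here. The filter could pass a scarce gene through the group where it was high, so counts over the 47 are given beside the same counts over all genes tested.

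Levels were compared between genes as deposited FPKM, which divides by coding length. The order began with *odr-4*, which is needed to place odorant receptors in the cilium, at a mean of 39.5 FPKM over the 12 libraries. It was followed by *che-10*, which encodes the rootletin homologue of the ciliary base, at 9.01 FPKM, then by the kinesin-II subunit *klp-20* at 5.09 FPKM, by *daf-19* at 4.63 FPKM and by *dyf-3*, an IFT-B component, at 3.73 FPKM. Genes of the transition zone and the BBSome filled most of the low end, with *nphp-1* at 0.261, *bbs-2* at 0.203 and *mks-3* at 0.15 FPKM. The lowest value was 0.124 FPKM for *mks-5*, whose row the table describes as a non-coding transcript of that gene. The highest level within each role belonged to *dyf-3* in IFT-B, *dyf-2* in IFT-A at 0.744 FPKM, *klp-20* among the motors, *bbs-5* in the BBSome at 1.59 FPKM, *mksr-2* in the transition zone at 1.08 FPKM, *che-10* at the base and *odr-4* in sensory transduction.

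The members lay on all 6 chromosomes, with 9 on chromosome I, 7 on X and 8 on each of the others (WBcel235). Of the 48, 19 shared exon bases with another protein-coding gene in the annotation of that build. The use of strand in counting is not stated, and reads in shared bases may therefore belong to either gene. The case that bears most on the genotypes is *dyf-5* (chromosome I, 9359153 to 9364005), which shares 140 exon bases on the opposite strand with *ppfr-1*, the gene whose intron holds *mir-71*. All other members that changed shared at most 70 exon bases with a gene in the count table, apart from *osm-3*, which shares 181 bases with *algn-14* on the same strand. The largest overlap of any member was that of *klp-11*, with 2349 exon bases shared on the same strand with *F20C5.11*, a gene model not analysed here.

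On water, loss of *mir-71* was accompanied by no called change in any cilium gene. Of 47 members, 0 were higher and 0 lower at an adjusted p under 0.05 (edgeR quasi-likelihood test, Benjamini-Hochberg over all genes), where 0.744% of all genes were higher and 0.758% lower. At an unadjusted p under 0.05, 1 member was higher and 1 lower, and DESeq2 also called 0 in either direction (1 higher and 0 lower unadjusted). The median log2 fold change of the members was 0.10 (all genes, -0.002), and single values ran from -0.94 for *mksr-1*, a B9-domain protein of the transition zone, to 0.84 for *osm-3*. The median standard error of 0.37 log2 units sets what these counts could show, and it was 0.59 for the 18 members with a mean count under 20.

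The gene with the highest value on water was *osm-3*, the kinesin-2 motor that alone drives transport in the distal part of the cilium. In wild type on water it stood at 2.13, 1.84 and 1.71 CPM (TMM-scaled read counts) in replicates 1, 2 and 3, and in the deletion on water at 3.75, 1.95 and 4.50 CPM. The groups overlapped through the deletion library at 1.95 CPM. The log2 fold change was 0.84 ± 0.37 (SE) with an adjusted p of 0.325 (edgeR).

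On azide in wild type, most cilium genes had lower levels than on water. Of 47 members, 40 (85.1%) had a log2 fold change below 0, against 52.6% of all genes. The members' median was -0.80, against -0.05 over all genes. It was -0.996 for the 18 members with a mean count under 20, -0.758 for the 16 with 20 to 50 and -0.185 for the 13 with 50 or more. All genes were not split by count. Past the threshold, 15 members fell and 2 rose (edgeR), which is 31.9% and 4.26% of the 47. Azide changed much of the transcriptome in wild type: 27.1% of all genes fell and 27.5% rose, so the share of members that fell was near the background, and the share that rose was below it. By a count that needs no model, all 3 azide libraries lay below all 3 water libraries for 25 members, where 34.2% of all genes did so. The first wild-type water library was the highest of its group for 30 of 47 members (40.5% of all genes), and without it 11 members fell and 0 rose (edgeR; 15 and 1 unadjusted), with a median of -0.72. In the order of the 4 group means, wild type on azide was the lowest group for 35 of 47 members (74.5%), against 40.1% of all genes. With only the groups compared fitted, 38 members passed the filter. Of these, 32 had values below 0, and their median was -0.76.

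**Figure D1:**
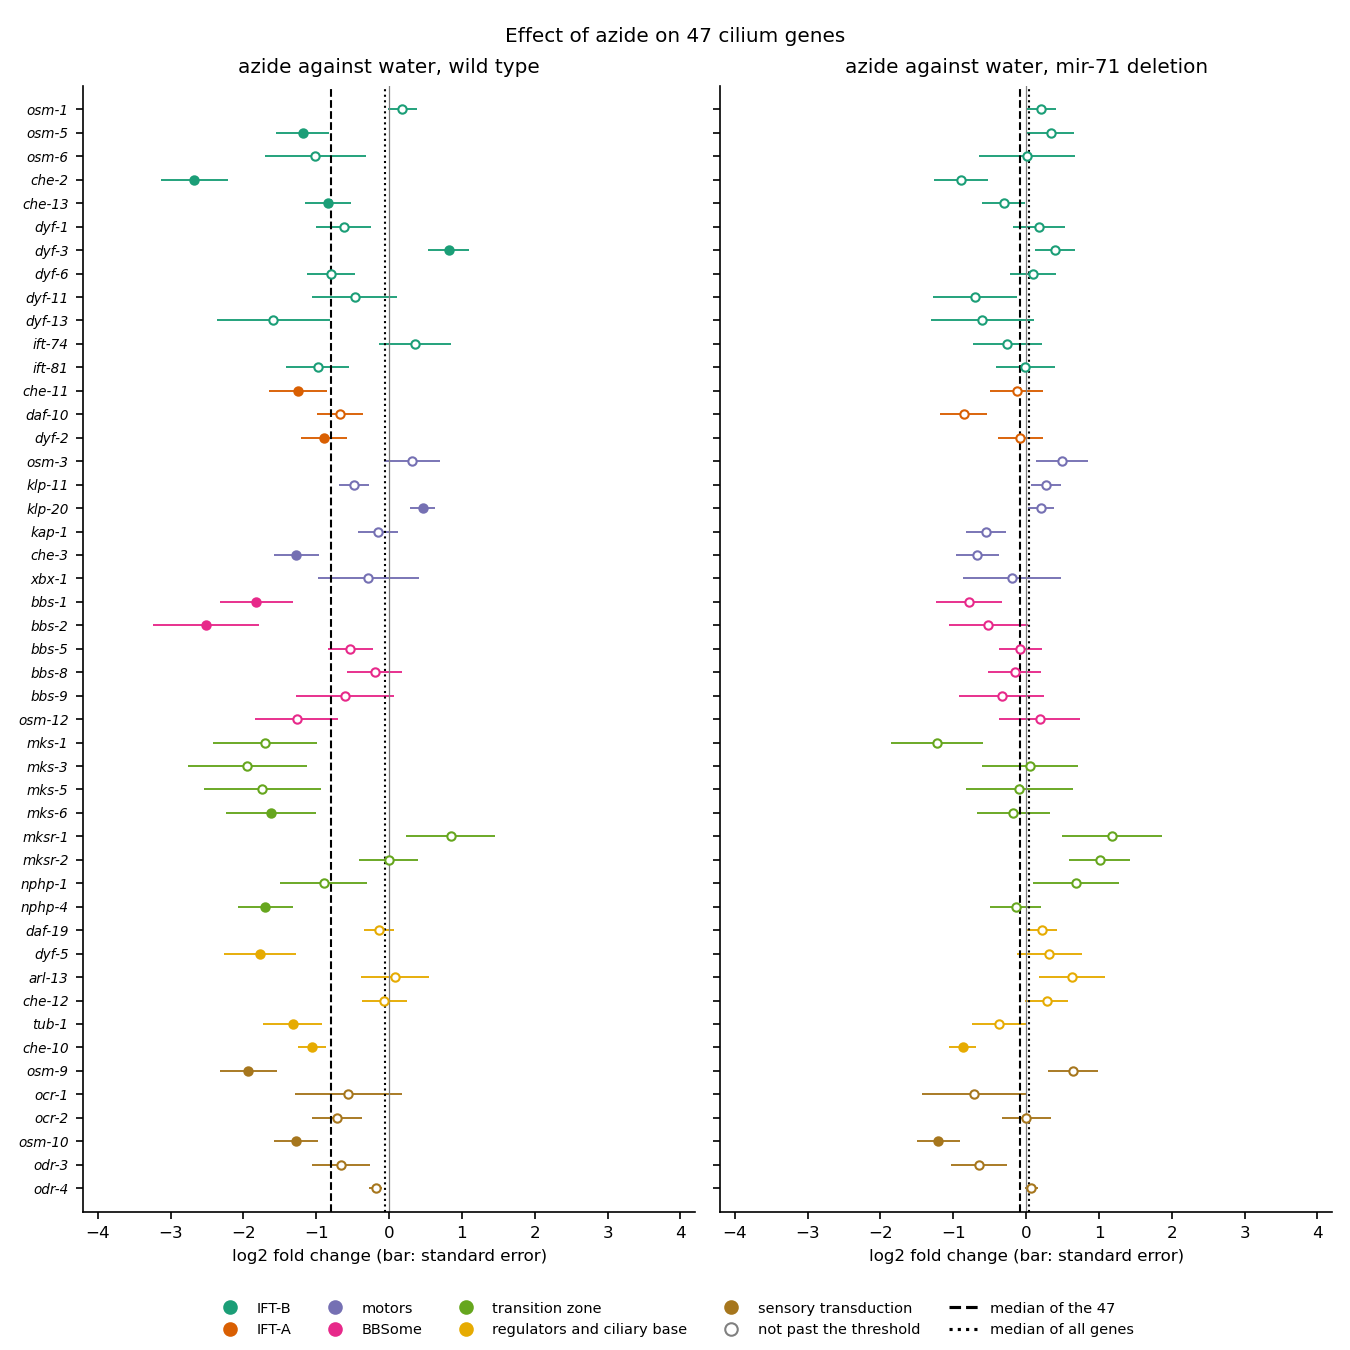
Log2 fold change of 47 cilium genes on azide against water (horizontal axis, log2 units) in wild type (left) and in the *mir-71* deletion (right), 1 gene a row, coloured by role; bars are standard errors from edgeR and filled points passed an adjusted p of 0.05. The dashed line is the members' median (-0.80 left, -0.08 right) and the dotted line the median of all genes (-0.05 left, 0.04 right).

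Among the IFT-B genes, 3 of 12 fell and 1 rose on azide in wild type, with a median log2 fold change of -0.82. The largest fall of the set was in *che-2* (chromosome X, 481451 to 486433), whose protein is the counterpart of mammalian IFT80. Its level was 1.52, 1.24 and 1.42 CPM on water and 0.307, 0.0552 and 0.265 CPM on azide, which are 30, 25 and 30 counts against 6, 1 and 6. Every azide library was below every water library, and the change was -2.67 ± 0.46 (SE) log2 units (edgeR adjusted p = 0.000301), a 6.37-fold fall. The genes *osm-5*, the counterpart of mammalian IFT88, and *che-13*, of IFT57, fell by 1.19 and 0.84 log2 units (edgeR adjusted p = 0.0124 and 0.0351).

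The IFT-B gene that rose was *dyf-3*, whose mammalian counterpart is CLUAP1. It stood at 2.63, 4.27 and 2.70 CPM on water and at 5.22, 6.96 and 4.81 CPM on azide, with no overlap between the groups. The rise was 0.82 ± 0.28 (SE) log2 units (edgeR adjusted p = 0.0242). With upper-quartile scaling it no longer passed the threshold, nor without the first or the last wild-type water library or the second wild-type azide library.

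All 3 IFT-A genes had values below 0 and 2 of them fell. The most abundant of them per length, *dyf-2*, had 3.70, 4.12 and 4.79 CPM on water and 1.54, 2.82 and 2.43 CPM on azide. The water libraries were all higher, and the fall was 0.89 ± 0.31 (SE) log2 units (edgeR adjusted p = 0.0256). Its fellow subunit *che-11* fell by 1.26 log2 units (edgeR adjusted p = 0.0162), and *daf-10* stood at -0.67 (edgeR adjusted p = 0.0871). On the strand opposite *che-11*, *C27A7.3* (50 shared exon bases) stood at 7.29 to 7.96 CPM on water and 2.56 to 2.71 CPM on azide. In the deletion *C27A7.3* stood at 8.68 to 13.7 and 4.41 to 6.99 CPM. Opposite *dyf-2*, *sid-2* (27 bases) overlapped in wild type, at 17.66 to 20.57 and 16.35 to 21.46 CPM. The part of such reads was not tested.

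Of the 6 motor genes, 1 fell and 1 rose. The heavy chain of the retrograde dynein, *che-3*, stood at 14.6, 8.78 and 8.82 CPM on water and at 4.76, 4.97 and 3.62 CPM on azide in wild type. It fell by 1.27 ± 0.30 (SE) log2 units, with no overlap (edgeR adjusted p = 0.00317). In contrast, *klp-20*, a motor subunit of the heterotrimeric kinesin-II, stood at 8.92, 8.14 and 8.77 CPM on water and 13.5, 10.2 and 11.8 CPM on azide. It rose by 0.46 ± 0.17 (SE) log2 units (edgeR adjusted p = 0.0366), a call that ended under upper-quartile scaling and without any single wild-type library other than the second on azide. Its partner subunits *klp-11* and *kap-1* had log2 fold changes of -0.48 and -0.15, and *osm-3* had 0.32, with edgeR adjusted p-values of 0.0646, 0.666 and 0.506.

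All 6 BBSome genes had values below 0 and 2 fell. The gene *bbs-2* (chromosome IV, 7934128 to 7937659) had 15, 8 and 7 counts in the water libraries and 1, 0 and 4 counts in the azide libraries, which is 0.760, 0.397 and 0.332 CPM against 0.0512, 0 and 0.177 CPM. The fall was 2.51 ± 0.73 (SE) log2 units (edgeR adjusted p = 0.0099), with a wide error from so few reads. Its partner *bbs-1* fell by 1.82 ± 0.51 (SE) log2 units (edgeR adjusted p = 0.00764). The most abundant BBSome gene, *bbs-5*, had 1.93, 1.24 and 2.09 CPM on water and 1.13, 1.22 and 1.28 CPM on azide. The groups overlapped slightly for *bbs-5*, and its value was -0.53 ± 0.31 (SE; edgeR adjusted p = 0.158).

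The transition zone had the lowest median of the 7 roles, -1.66 log2 units over 8 genes, but only 2 of them passed the threshold. The nephrocystin gene *nphp-4* had 2.43, 2.13 and 2.94 CPM on water and 1.02, 0.276 and 0.972 CPM on azide, and it fell by 1.70 ± 0.38 (SE) log2 units (edgeR adjusted p = 0.0018). The Meckel syndrome gene homologue *mks-6* fell by 1.62 ± 0.62 (SE) log2 units (edgeR adjusted p = 0.0396), with groups that overlapped. That call was kept in 4 of the 7 alternatives that tested the gene and in 5 of 12 fits that left out 1 library, with edgeR adjusted p-values of up to 0.183. The B9-domain gene *mksr-2* stood at 0.557, 0.546 and 0.664 CPM on water and 0.819, 0.552 and 0.397 CPM on azide (log2 fold change -0.01 ± 0.41 SE). For *mks-3*, which shares 154 exon bases on the opposite strand with *F35D2.6*, the value of -1.95 ± 0.82 (SE) did not pass (edgeR adjusted p = 0.0571), and *F35D2.6* itself stood at 3.18 to 4.27 CPM on water and 0.0552 to 0.486 CPM on azide.

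Among regulators and genes of the ciliary base, 3 of 6 fell. The most abundant, *che-10*, had 75.2, 75.1 and 67.9 CPM on water and 33.2, 31.6 and 39.8 CPM on azide, resting on 572 to 1514 counts per library. It fell by 1.06 ± 0.19 (SE) log2 units (edgeR adjusted p = 0.00042). The kinase gene *dyf-5* fell by 1.78 and the Tubby homologue *tub-1* by 1.32 log2 units (edgeR adjusted p = 0.00797 and 0.013). The regulator gene *daf-19*, counted per gene with no split by isoform, stood at 12.4, 9.53 and 9.86 CPM on water and at 10.5, 8.84 and 9.45 CPM on azide. The groups overlapped, and the change was -0.14 ± 0.21 (SE; edgeR adjusted p = 0.598).

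Of the 6 sensory transduction genes, all had values below 0 and 2 fell. The TRPV channel gene *osm-9* (chromosome IV, 3551151 to 3557431), which is needed in cilia for osmotic and several chemical responses, had 2.74, 4.07 and 3.37 CPM on water and 1.02, 0.939 and 0.707 CPM on azide. All water libraries were above all azide libraries, and the fall was 1.93 ± 0.39 (SE) log2 units (edgeR adjusted p = 0.000883). The gene *osm-10*, needed for osmotic avoidance, had 2.99, 3.23 and 3.13 CPM on water and 1.38, 0.884 and 1.55 CPM on azide. It fell by 1.28 ± 0.30 (SE) log2 units (edgeR adjusted p = 0.00292). The gene *zmp-6*, which shares 46 exon bases with *osm-10* on the opposite strand, stood at 7.94 to 10.2 CPM on water and 2.83 to 3.68 CPM on azide. The abundant *odr-4* stood at 62.6, 62.4 and 59.6 CPM on water and 55.4, 54.2 and 52.7 CPM on azide, a difference of -0.19 ± 0.09 (SE) log2 units that did not pass (edgeR adjusted p = 0.0914) although the groups did not overlap.

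**Figure D2:**
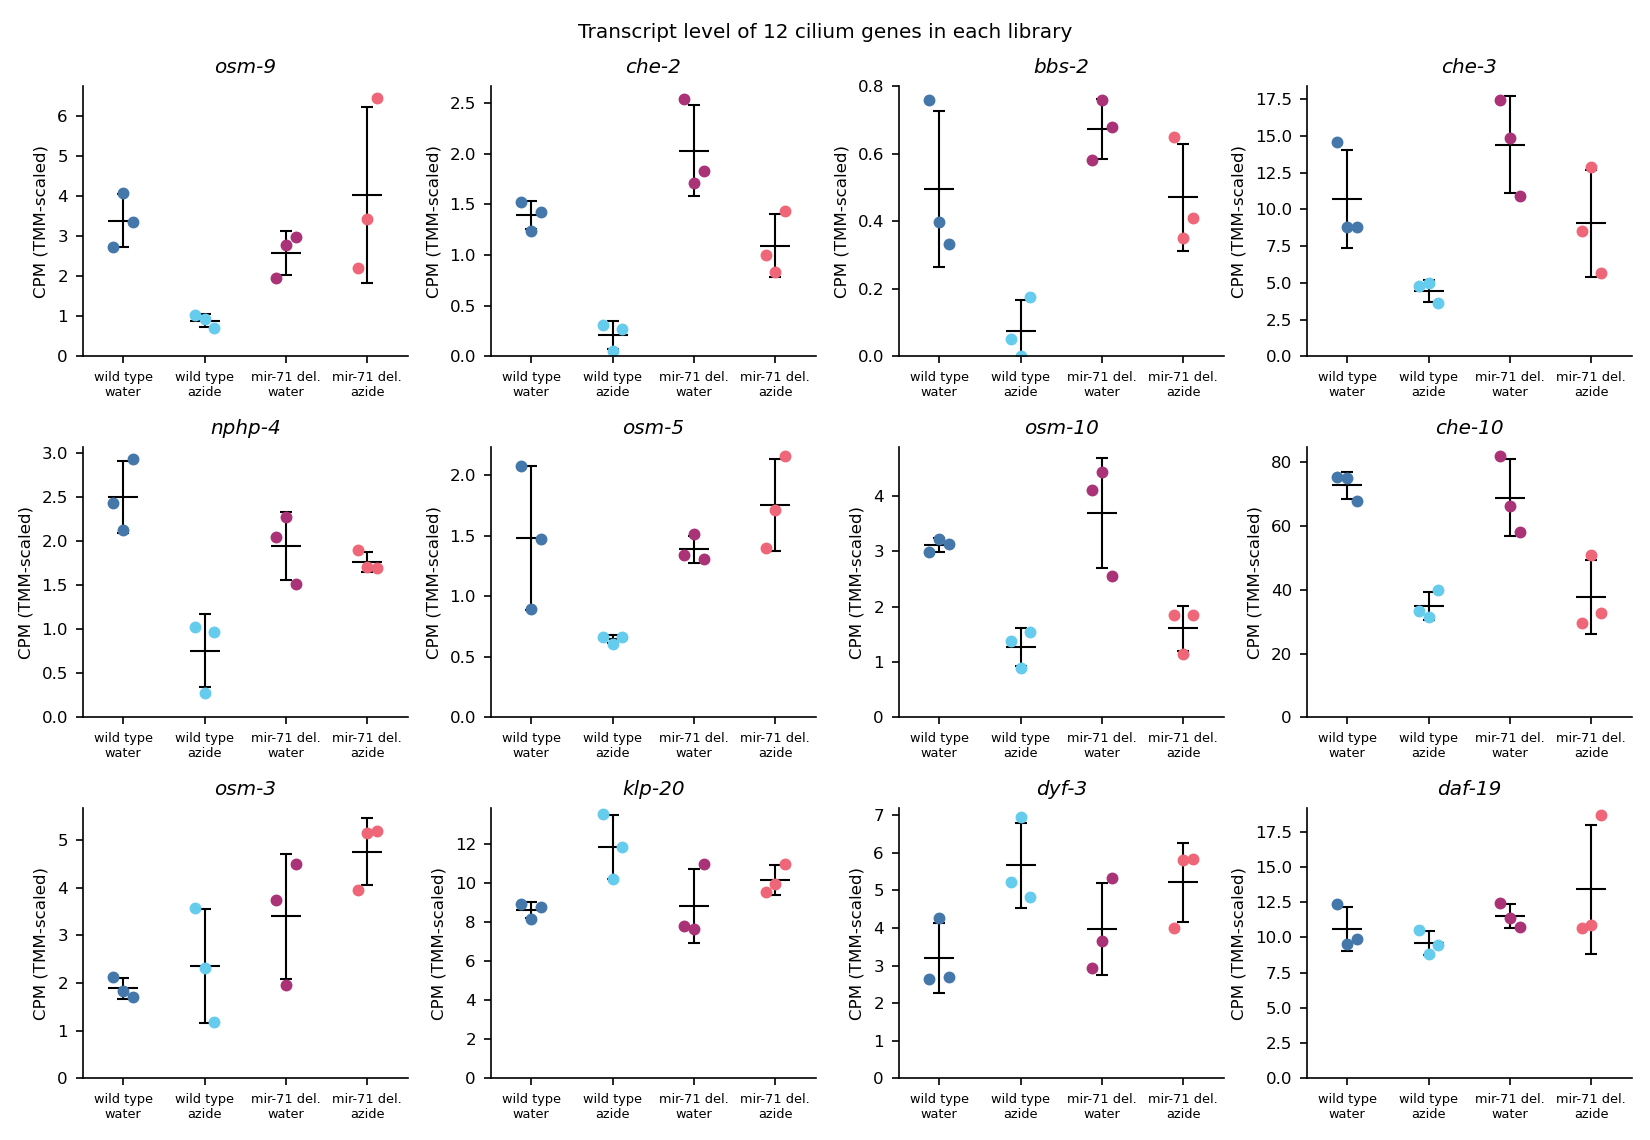
Level of 12 cilium genes (vertical axis, CPM scaled by TMM, from 0) in each of the 12 libraries, by group; points are libraries in replicate order, the horizontal mark is the group mean and the bars its SD (n = 3). The wild-type azide libraries are the lowest for *osm-9*, *che-2*, *bbs-2*, *che-3*, *nphp-4* and *osm-5*, while *osm-10* and *che-10* are low on azide in both genotypes.

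In the deletion, azide changed few cilium genes past the threshold. Of 47 members, 2 fell (4.26%) and 0 rose (edgeR), where 11.6% of all genes fell and 12.3% rose, and 5 were lower and 1 higher at an unadjusted p under 0.05. DESeq2 also called 0 higher. The median was -0.08 log2 units, against 0.04 over all genes, and 26 of 47 values were below 0. Leaving out the third replicate of the deletion on azide raised the number that fell to 4, by *che-2* and *kap-1*. Leaving out the third replicate of the deletion on water added *daf-10* as a fall and *mksr-1* as a rise.

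The 2 genes that fell in the deletion, *che-10* and *osm-10*, had also fallen in wild type. In the deletion *che-10* had 82.0, 66.4 and 58.1 CPM on water and 29.5, 50.8 and 32.8 CPM on azide, a fall of 0.87 ± 0.19 (SE) log2 units (edgeR adjusted p = 0.00554). For *osm-10* the values were 4.11, 4.43 and 2.56 CPM on water and 1.85, 1.14 and 1.85 CPM on azide, a fall of 1.21 ± 0.30 (SE) log2 units (edgeR adjusted p = 0.0104). Neither gene's groups overlapped, and the call of *osm-10* ended when only the groups compared were fitted. The 2 genotypes differed in their azide effect by 0.19 ± 0.26 (SE) for *che-10* and 0.08 ± 0.42 for *osm-10* on the log2 scale, with edgeR adjusted p-values of 0.654 and 0.923. In the deletion *zmp-6*, opposite *osm-10*, stood at 8.52 to 12.0 CPM on water and 4.09 to 6.10 CPM on azide. The part that reads from *zmp-6* have in *osm-10* was not tested.

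None of the other genes that had fallen in wild type passed the threshold here. The dynein gene *che-3* had 17.5, 14.9 and 10.9 CPM on water and 8.54, 12.9 and 5.69 CPM on azide in the deletion, a log2 fold change of -0.67 ± 0.29 (SE; edgeR adjusted p = 0.109). For *che-2* the values were 2.54, 1.71 and 1.83 CPM against 0.998, 0.835 and 1.44 CPM, which did not overlap, with -0.90 ± 0.37 (SE; edgeR adjusted p = 0.093). The IFT-A gene *dyf-2* stood at 3.62, 3.63 and 1.88 CPM on water and 2.90, 2.15 and 3.64 CPM on azide, which overlapped.

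Nor did the genes that had risen in wild type pass it. The values of *dyf-3* were 2.95, 3.67 and 5.33 CPM on water and 3.99, 5.80 and 5.85 CPM on azide, and those of *klp-20* were 7.81, 7.65 and 11.0 CPM and 9.53, 9.93 and 11.0 CPM. Both groups overlapped, with log2 fold changes of 0.40 and 0.21. The abundant *odr-4* stood at 55.4, 54.3 and 52.0 CPM on water and 62.4, 56.1 and 50.9 CPM on azide, *bbs-5* at 2.23, 1.87 and 1.99 CPM and 1.40, 1.80 and 2.56 CPM, and *mksr-2* at 0.402, 0.319 and 0.366 CPM and 0.749, 0.879 and 0.564 CPM. Only *mksr-2* was separated between these groups, upward, at 1.01 ± 0.42 (SE) log2 units (edgeR adjusted p = 0.0969).

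On azide, the deletion stood above wild type for most cilium genes. Of 47 members, 41 (87.2%) had a log2 fold change above 0, against 52.3% of all genes, and the median was 0.73, against 0.04. The members' median was 0.82 for the 18 with a mean count under 20, 0.70 for the 16 with 20 to 50 and 0.33 for the 13 with 50 or more. Past the threshold, 11 members (23.4%) were higher and 0 were lower (edgeR), where 20.1% of all genes were higher and 18.7% lower. At an unadjusted p under 0.05, 18 were higher and 0 lower, and DESeq2 called 0 lower as well. The 3 deletion libraries lay above the 3 wild-type libraries for 19 members, where 24.4% of all genes did so. Here too the share of members called higher was near the background. This comparison uses the same wild-type azide libraries as the comparison with water above, so genes that read low in those 3 libraries enter both. Without the second wild-type azide library, 6 members were called higher. With only the groups compared fitted, 37 members passed the filter. Of these, 6 had values below 0, and their median was 0.65.

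The largest differences were in *bbs-2*, *che-2* and *osm-9*. Against the wild-type azide values given above, *bbs-2* had 13, 8 and 8 counts in the deletion on azide (0.649, 0.352 and 0.410 CPM), a difference of 2.44 ± 0.73 (SE) log2 units (edgeR adjusted p = 0.0183). Its call ended when the first or second wild-type azide library or the first deletion azide library was left out. When only the groups compared were fitted, the filter removed *bbs-2*, so it was not tested there. The difference for *che-2* was 2.31 ± 0.47 (SE) log2 units (edgeR adjusted p = 0.00228). For *osm-9* the deletion azide libraries stood at 2.20, 3.43 and 6.46 CPM, all above wild type on azide, and the difference was 2.18 ± 0.39 (SE) log2 units (edgeR adjusted p = 0.00096). The calls of *che-2* and *osm-9* held under every alternative run and without any single library.

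Of the other 8 genes called higher, the transition zone gave *mks-6* and *nphp-4*, at 1.92 and 1.20 log2 units. IFT-B gave *osm-5* and IFT-A *che-11*, at 1.43 and 1.36. The motors gave 3 of their 6 genes: *che-3* at 1.03, *osm-3* at 1.02 and *klp-11* at 0.82. The edgeR adjusted p-values of these 7 genes lay between 0.00703 and 0.0413. For *osm-3*, the wild-type libraries on azide stood at 3.58, 2.32 and 1.19 CPM and the deletion libraries at 3.94, 5.14 and 5.18 CPM. They did not overlap, but the gap between 3.58 and 3.94 CPM was small, and the call (edgeR adjusted p = 0.0413) was lost without any of 8 of the 12 libraries in turn. The call of *mks-6* was lost without any of 3 of them (edgeR adjusted p up to 0.0881). Those of *che-11*, *che-3* and *nphp-4* were each kept in 10 of 12 fits that left out 1 library, and those of *osm-5* and *klp-11* in all 12. When only the groups compared were fitted, the calls of *osm-3* and *nphp-4* ended.

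The last of the 11, *dyf-5*, was higher by 1.69 ± 0.50 (SE) log2 units (edgeR adjusted p = 0.0169), at 1.10, 0.703 and 1.54 CPM against 0.205, 0.166 and 0.618 CPM. The gene on its opposite strand, *ppfr-1*, stood at 98.7 to 107 CPM in the 6 wild-type libraries, at 426 to 465 CPM in the deletion on water and at 541 to 796 CPM in the deletion on azide. On water, where *ppfr-1* was also higher in the deletion, *dyf-5* stood at 0.848, 0.877 and 0.941 CPM in the deletion and 0.912, 1.49 and 1.14 CPM in wild type, a difference of -0.41 ± 0.44 (SE). The call of *dyf-5* on azide ended when only the groups compared were fitted and without the first or the second wild-type azide library or the third deletion azide library (adjusted p up to 0.0671). The part that reads from *ppfr-1* have in *dyf-5* was not tested.

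No difference was called for *daf-19* on azide, which stood at 10.7, 10.9 and 18.7 CPM in the deletion (log2 fold change 0.48 ± 0.21 SE, edgeR adjusted p = 0.0841). The third library of that group gave the highest of these values, and it was the highest of its group for 27 of 47 members (40.2% of all genes). Without it, 10 members were called higher on azide, and the median difference was 0.49 log2 units in place of 0.73.

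**Figure D3:**
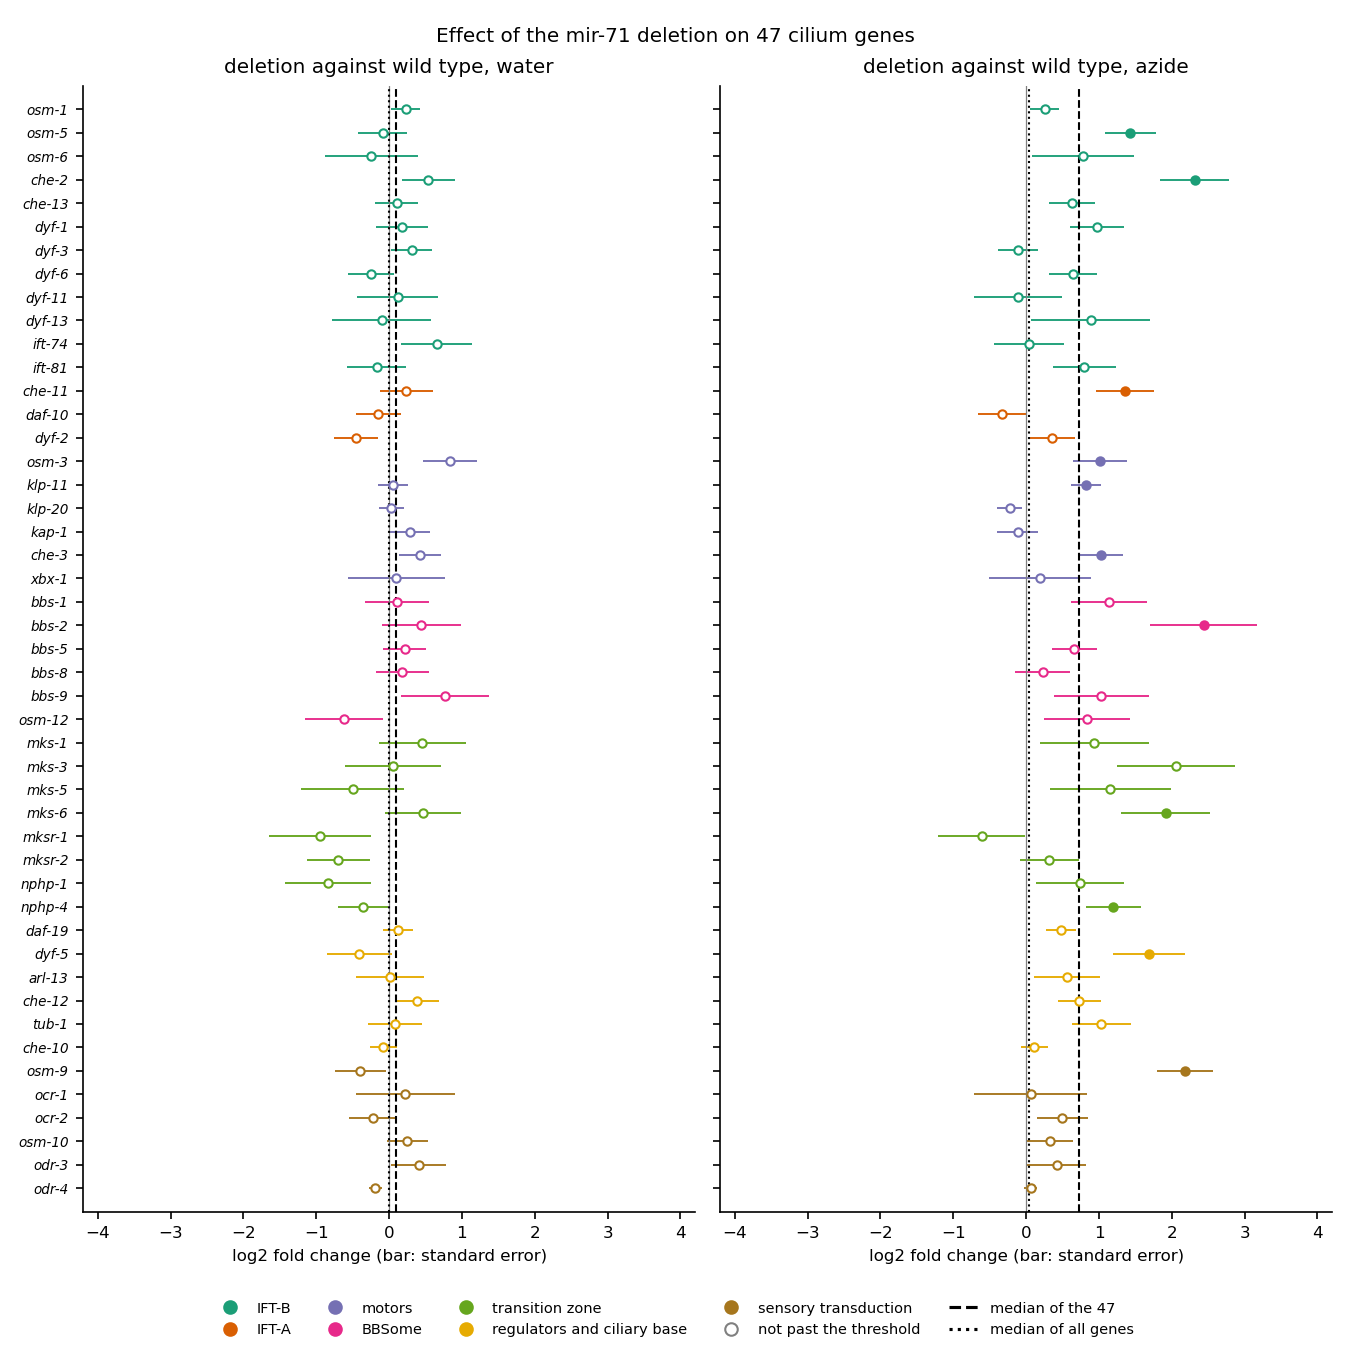
Log2 fold change of 47 cilium genes in the *mir-71* deletion against wild type (horizontal axis, log2 units) on water (left) and on azide (right), 1 gene a row, coloured by role; bars are standard errors from edgeR and filled points passed an adjusted p of 0.05. No point is filled on water and 11 are filled on azide, all above 0, where the dashed line of the members' median lies at 0.73.

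Azide effects were compared between the 2 genotypes as an interaction, and *osm-9* was the gene that passed. The azide effect on *osm-9* was -1.93 log2 units in wild type and 0.64 ± 0.35 (SE; edgeR adjusted p = 0.193) in the deletion, where it had 1.96, 2.79 and 2.98 CPM on water. The difference was 2.57 ± 0.52 (SE) log2 units (edgeR adjusted p = 0.00782), and the call held in all 7 alternatives and without each of the 12 libraries. With 1 member called higher and 0 lower, where 6.67% of all genes were higher and 3.8% lower, the set gave few calls in this test. At an unadjusted p under 0.05, 7 members were higher and 0 lower. DESeq2 called 4 higher, adding *dyf-5*, *nphp-4* and *osm-5*, and 0 lower.

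Most members leaned the same way without passing. The interaction was above 0 for 40 of 47 members (85.1%), against 53.9% of all genes, with a median of 0.60 log2 units (all genes, 0.06). The members' median was 1.00 for the 18 with a mean count under 20, 0.76 for the 16 with 20 to 50 and 0.19 for the 13 with 50 or more. The next genes were *dyf-5* at 2.09 ± 0.67 (SE), *osm-5* at 1.52 ± 0.49, *nphp-4* at 1.55 ± 0.51 and *che-2* at 1.77 ± 0.60, with edgeR adjusted p-values of 0.0608, 0.0612, 0.0688 and 0.0725. The median standard error of this contrast was 0.52 log2 units over the members. The count rose to 3, with *klp-11* and *osm-5*, when the first deletion azide library was left out, and to 2 without the second wild-type water library (*osm-5*) or the third wild-type azide library (*dyf-5*).

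Summed levels by role rest on more reads than single genes. The 8 transition zone genes together stood at 5.81 to 7.40 CPM in wild type on water, 2.83 to 3.84 on azide, and in the deletion at 5.36 to 6.18 on water and 5.39 to 6.00 on azide. The BBSome sum was 5.03 to 6.99 CPM in wild type on water and 2.66 to 3.59 on azide, against 5.75 to 7.77 and 4.70 to 7.23 in the deletion. The IFT-B sum overlapped between treatments in wild type, at 22.1 to 27.8 CPM on water and 20.9 to 22.9 on azide. Within it, *osm-1*, the counterpart of mammalian IFT172, gave 6.97 to 8.83 CPM on water and 8.67 to 9.82 on azide. For all 48 genes the wild-type sums were 226 to 258 CPM with water and 164 to 172 CPM with azide. The deletion gave 220 to 255 CPM and 190 to 220 CPM. Much of this came from *che-10* and *odr-4*, with means of 72.7 and 61.5 CPM in wild-type water libraries, where the mean sum was 241 CPM. Without *che-10* and *odr-4*, the wild-type sums were 99.0 to 120 CPM with water and 77.0 to 83.3 CPM with azide. Those of the deletion were 110 to 121 CPM and 97.7 to 136 CPM, which overlapped. These sums are descriptions with no test.

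**Figure D4:**
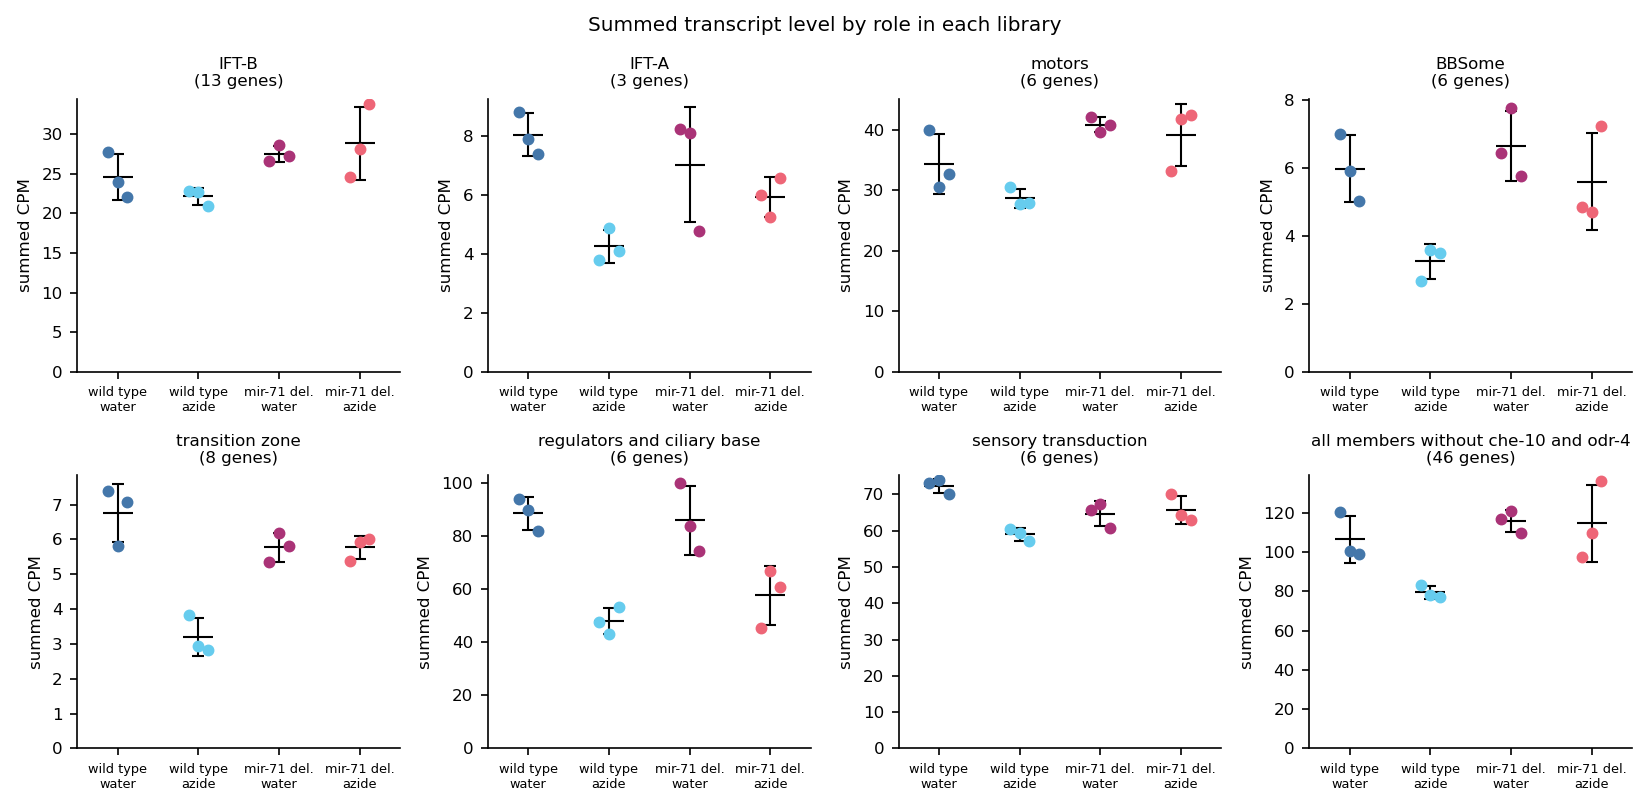
Summed CPM (vertical axis, from 0) of the genes of each role, and of all members without the 2 most abundant, *che-10* and *odr-4*, in each library by group; points are libraries in replicate order, the mark is the group mean and the bars its SD (n = 3). The wild-type azide libraries lie below the other 9 for the transition zone and the BBSome, while regulators and ciliary base, led by *che-10*, are low on azide in both genotypes.

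Other genes of the same pathways moved in both directions. Of 32 tested genes in a list of further cilium genes, 6 (18.8%) fell and 4 (12.5%) rose on azide in wild type, with a median of -0.78 log2 units. Both shares were below those of all genes, 27.1% and 27.5%. The largest falls were in *nphp-2*, the inversin homologue, by 1.92, and in *tbb-4*, a tubulin of sensory neurons, by 1.78. The largest rises were in *dyf-17* at 1.56 and the alpha-tubulin gene *tba-9* at 1.17. On azide, 6 (18.8%, against 20.1% of all genes) were higher in the deletion, led by *bbs-4* at 2.09 and *nphp-2* at 1.45, and 2 (6.25%, against 18.7%) were lower, *lov-1* at -4.56 and the tubulin ligase-like *ttll-4* at -0.50. On water 0 of the 32 were called by edgeR (2 higher and 2 lower unadjusted), and in the deletion on azide against water *hyls-1*, a gene of the ciliary base, rose by 0.55.

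Signalling partners of the cilium gave 17 tested genes. On azide in wild type 4 (23.5%, against 27.1% of all genes) fell and 0 rose (edgeR; 0 also at an unadjusted p under 0.05), with a median of -0.36 log2 units, led by the diacetyl receptor gene *odr-10* at -2.19 and the receptor guanylate cyclase gene *daf-11* at -1.68. On azide 4 (23.5%, against 20.1% of all genes) were higher in the deletion, with a median of 0.48, led by the cyclic nucleotide-gated channel gene *cng-3* at 3.22 and *odr-10* at 2.43, and 1 was lower, *daf-21*, the HSP90 gene, at -0.36. All 3 of these receptor and channel genes had group means under 1.5 CPM in every group.

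Markers of other tissues changed in the same comparisons. On azide in wild type, 18 of 29 genes in a list of neuron markers fell and 5 rose, with a median of -0.61 log2 units. Of all genes, 27.1% fell and 27.5% rose. The summed level of the neuron markers went from 1932 to 2102 CPM on water to 1759 to 1820 CPM on azide. Of 15 tested genes in a list of glia markers, 10 fell and 0 rose, with a summed level of 373 to 416 CPM on water and 194 to 200 CPM on azide. Of 12 hypodermis markers 11 fell, with sums of 6184 to 8050 CPM and 931 to 1018 CPM. Of 19 germline and oocyte markers 16 rose, with sums of 1761 to 2553 CPM and 6114 to 6553 CPM, and all 6 vitellogenin genes rose, from 4216 to 6191 CPM to 34570 to 44400 CPM.

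For the deletion against wild type on azide, 15 of 29 neuron markers were higher and 4 lower. Of 15 tested glia markers 8 were higher, and of 12 hypodermis markers 11 were higher. Of 19 germline and oocyte markers 15 were lower, as were all 6 vitellogenins. Of all genes, 20.1% were higher and 18.7% lower. The deletion sums on azide were 1532 to 1970 CPM for neuron markers, a range that overlaps that of wild type on azide, 275 to 347 CPM for glia markers, 3217 to 4812 CPM for hypodermis markers, 1943 to 3620 CPM for germline and oocyte markers and 238 to 2130 CPM for vitellogenins. Of 12 body wall muscle markers, 0 passed on azide in wild type (edgeR; 1 rise and 0 falls unadjusted), and their sums were 10740 to 11890 CPM on water and 11620 to 13080 CPM on azide. In the deletion on azide their sums ran from 10220 to 16530 CPM, and against wild type on azide 1 marker was higher and 1 lower. Of 11 intestine markers, 6 fell (54.5%, against 27.1% of all genes) and 0 rose on azide in wild type, from sums of 10680 to 12020 CPM to sums of 9225 to 9818 CPM. Their sums in azide-treated deletion libraries were 5913 to 8621 CPM, with 1 marker higher and 3 lower than in azide-treated wild type. In the deletion, azide against water gave 1 rise and 1 fall of neuron markers and 2 rises and 7 falls of glia markers. Of hypodermis markers 2 rose and 2 fell, and of germline and oocyte markers 13 rose. No vitellogenin was called (edgeR; 1 lower unadjusted), and 1 muscle marker and 5 intestine markers fell. Of all genes, 12.3% rose and 11.6% fell there. No neuron, muscle, intestine, hypodermis, germline or vitellogenin marker was at 0 in any library, and 3 of 18 glia markers (*delm-1*, *hlh-17* and *mls-2*) were at 0 in at least 1. The part that tissue make-up or developmental stage has in the cilium genes was not tested.

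Libraries were also scaled to their neuron markers. With that scaling, 9 members fell and 3 rose on azide in wild type, where 13.5% of all genes fell and 39% rose, and the members' median was -0.40 (all genes, 0.33). The genes *che-2*, *bbs-2*, *osm-9*, *bbs-1*, *dyf-5*, *nphp-4*, *osm-10*, *che-3* and *che-10* still fell. The calls of *dyf-2*, *che-13*, *che-11*, *mks-6*, *tub-1* and *osm-5* ended, and those of the first 4 also ended when libraries were scaled to ribosomal protein genes. For the deletion on azide, 7 members were higher and 1, *klp-20*, was lower, where 9.64% of all genes were higher and 36.3% lower. The calls of *osm-3*, *klp-11*, *che-3* and *nphp-4* ended there, and the members' median was 0.32 (all genes, -0.34). For the interaction the median came to 0.09 (all genes, -0.44), with 26 of 47 above 0. The share of all genes above 0 was not taken under this scaling. Under the 5 scalings run, the members' median minus that of all genes was -0.77 to -0.73 log2 units for azide in wild type. For the deletion on azide it was 0.65 to 0.70. A scaling shifts all genes of a library nearly alike, so this difference could hardly change and does not test the result.

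**Figure D5:**
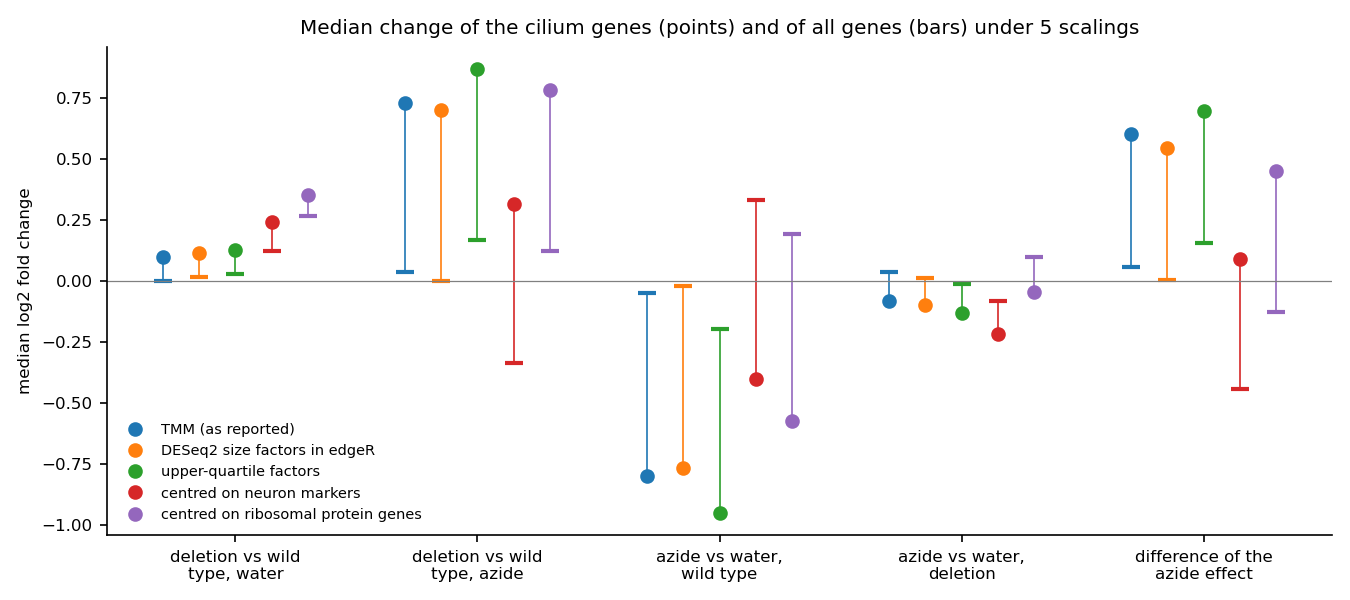
Median log2 fold change (vertical axis) of the cilium genes (points) and of all genes tested (short bars), joined by a line, for the 5 comparisons under 5 ways of scaling libraries. A scaling shifts all genes of a library nearly alike, so points and bars move together and their distance tests nothing. For azide in wild type the points lie between -0.95 and -0.40.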

How the data were processed

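Poly(A) RNA of whole L4 animals was sequenced in 12 libraries, 3 biological replicates of each of 4 groups, and groups were taken from the sample labels. The authors trimmed reads with cutadapt 1.9.1, aligned them with HISAT2 2.0.1 to WBcel235, counted them per gene with HTSeq 0.6.1 and tested with DESeq2. The strand setting of the counting is not given in the sources. The deposited counts are whole numbers without normalization and were used for all tests. The deposited FPKM values are the count divided by coding length and library total, and served only to order genes by level.

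A single edgeR 4.0.16 fit (R 4.3.3) covered the 12 libraries, with group means as coefficients and TMM. The default filter on low counts asked for a level equal to about 10 counts in at least 3 libraries and a total of 15. It left 15048 genes. The robust quasi-likelihood test was used, two-sided, with Benjamini-Hochberg adjustment over all genes tested, at 0.05. Differences of the azide effect were tested as an interaction. CPM is the count scaled to library size with the TMM factor. SE is the log2 fold change divided by the root of its F statistic. The script was tested on simulated data. Alternatives were DESeq2 1.42.0, DESeq2 size factors, upper-quartile factors, centring on neuron markers or ribosomal protein genes, no filter, only the groups compared, a replicate block and leaving out each library. Overlaps with other genes come from the Ensembl annotation of WBcel235.

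The members and lists were chosen with earlier results of these data known, so a direction over the list is a description. Values in every library are given for the most abundant member of each role, the 3 largest rises and falls past the threshold in each comparison, *daf-19*, *osm-3* and *che-3*. For the further cilium genes and the signalling partners, the 2 largest rises and falls are named. The library values of *nphp-4* and *dyf-5*, and the values of *ppfr-1*, *F35D2.6*, *zmp-6*, *C27A7.3* and *sid-2*, fall outside this rule and were chosen after they were seen. Promoters, proteins and the X-box were not analysed here.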

Additional observations from a re-analysis of the deposited data

Results flagged for a closer look

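The effect of azide differed between the genotypes for 3 cilium genes, by the interaction test of edgeR. Of 47 members 1 was higher (2.13%), and of 32 further cilium genes 1 was higher and 1 lower (3.12% each). Of all genes, 6.67% were higher and 3.8% lower. Calls under the alternatives were followed for members only, so not for *tbb-4* and *ttll-4*. For *osm-9* the difference was 2.57 log2 units (edgeR adjusted p = 0.00782): all 3 wild-type azide libraries were below all 3 wild-type water libraries, while in the deletion the azide libraries overlapped those on water. For *tbb-4*, a tubulin gene of the further cilium list, it was 1.46 ± 0.42 (SE; edgeR adjusted p = 0.0431), with group means of 5.50 and 1.59 CPM on water and azide in wild type and 5.47 and 4.36 CPM in the deletion. For *ttll-4* it was -0.55 ± 0.15 (SE; edgeR adjusted p = 0.0293), with means of 30.6 and 49.6 CPM in wild type and 31.8 and 35.1 CPM in the deletion.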

How the results depend on the processing

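Of 31 calls of members over the 5 comparisons, 14 held in every alternative that tested the gene and 0 reversed. Of these 14, *bbs-2* on azide in wild type was removed by the filter when only the groups compared were fitted. Upper-quartile factors gave 23 falls and 0 rises on azide in wild type, in place of 15 and 2. Under them 33.6% of all genes fell and 22.3% rose, in place of 27.1% and 27.5%. Centring on neuron markers gave 9 falls on azide in wild type, where 13.5% of all genes fell. It gave 7 higher and 1 lower for the deletion on azide, in place of 11 and 0, where 9.64% of all genes were higher and 36.3% lower. Fitting only the groups compared gave 7 higher for the deletion on azide and 1 fall on azide in the deletion, in place of 11 and 2. The filter left 37 and 43 members in those fits, in place of 47. DESeq2 gave 4 members higher in the interaction, in place of 1. The cause was not tested. Leaving out 1 library at a time gave 6 to 12 higher for the deletion on azide, 0 to 2 rises and 11 to 18 falls on azide in wild type, 0 to 1 rises and 2 to 4 falls on azide in the deletion, and 1 to 3 in the interaction. The 2 rises in wild type on azide, *dyf-3* and *klp-20*, were each lost without some libraries: the number was 0 without the first or the third wild-type water library. Where a group was left with 2 libraries they were assumed to vary like the others.

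The labels number replicates 1 to 3 in every group. Over 18 pairs of same-numbered libraries the correlation of deviations from group means ran from -0.107 to 0.165, with 2 over 0.1, so the numbers were not taken to pair samples. A fit with the replicate number as a block gave the same numbers, though for azide in wild type *mks-6* was lost and *ocr-2* gained, with 16 of 17 calls shared: 0 and 0 for the deletion on water, 11 higher and 0 lower for the deletion on azide, 2 rises and 15 falls on azide in wild type, 0 and 2 for azide in the deletion, then 1 and 0 in the interaction. With a mean count under 20, the 18 scarcest members had a median standard error of 0.65 log2 units on azide in wild type, against 0.28 for the 13 with 50 or more, and 3 of the 18 passed against 7 of the 13.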

Other observations

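The polycystin gene *lov-1*, known for its role in male-specific ciliated neurons, had group means of 0.647 ± 0.701 CPM in wild type on water, 0.892 ± 0.896 on azide, 0.0664 ± 0.115 in the deletion on water and 0.0342 ± 0.0592 on azide (SD, n = 3). The spread in wild type was as large as the mean. On azide the thermosensory neuron gene *ttx-1* was higher in the deletion by 0.94 log2 units (edgeR adjusted p = 0.0271), and on azide in wild type *grk-2* and *tax-6* fell by 0.78 and 0.35 log2 units (edgeR adjusted p = 0.00447 and 0.038).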
